A study of Drosophila melanogaster with 6 samples.

Results

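Genes of neural stem cells, called neuroblasts in the fly, were followed in the eye-antennal imaginal discs of Drosophila melanogaster larvae. They are the non-coding RNA CR43283, now named lncRNA:cherub, and the protein-coding genes dpn, mira, ase and wor. The members were chosen by symbol, and all 5 were found among the 16727 genes of the count table. They were proposed with the comparison of the days and the wide spread of CR43283 between libraries already known. Their levels and their differences between days are therefore a description. Where the fit over all genes placed a member past its threshold, this is stated beside the share of all genes so placed and supports nothing.

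All larvae were of genotype y w; +/+; +/+ and lived on pupation-preventing food, made with yeast of strain YPH erg2∆::TRP1 that lacks the precursors of the moulting hormone. Discs were taken 5 days after egg laying, while they still grew, or after 11 days, once growth was complete. Each day has 3 libraries, each from at least 30 pooled discs. All groups share the genotype and the food, so age and time on the food differ between the days together with growth. Tags from the 3′ ends of polyadenylated RNA were counted per gene, giving 6542782 to 9049513 counts per library, and levels are CPM, counts scaled to a common library total, after TMM scaling. Of the 8010 genes tested by edgeR, 1533 were higher and 1432 lower at day 11; with scaling by total counts, under which the median gene stood at -0.28 on the log2 scale instead of -0.01, they were 865 and 2207.

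Neuroblasts divide asymmetrically, renewing themselves while giving off a smaller daughter that goes on to form neurons or glia. The adaptor protein Miranda carries fate determinants, among them Prospero, Brat and Staufen, to the cortex that the smaller daughter inherits. Deadpan, Asense and Worniu are transcription factors of the neuroblast nucleus. The cherub RNA is known from larval brain neuroblasts, where it is held at the cortex with Staufen and binds the RNA-binding proteins Imp and Syncrip. In the eye-antennal disc, neurons arise without neuroblasts, from epithelial cells behind the morphogenetic furrow and from sensory organ precursors. Larval brain lies next to these discs and is joined to the eye part by the optic stalk.

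All 17 defining genes of the eye-antennal disc had counts in every library, as the tissue label says. Their summed level ranged from 979.9 to 1282.4 CPM at day 5 and from 695.0 to 1171.0 CPM at day 11. Genes of other larval tissues were present too, at levels that varied widely between libraries of the same day. The summed level of 6 fat body genes was 637.5, 302.0 and 63.5 CPM in day 5 replicates 1, 2 and 3. At day 11 it was 73.8, 963.3 and 118.6 CPM. The 8 ring gland genes took the opposite order at day 5, with 23.3, 107.7 and 389.2 CPM in replicates 1, 2 and 3. At day 11 they summed to 9.63, 58.1 and 6.11 CPM. The 6 muscle genes summed to 262.1, 678.9 and 242.0 CPM at day 5 and 180.7, 208.5 and 129.4 CPM at day 11, and the 6 haemocyte genes to 54.0 to 71.8 and 78.7 to 179.7 CPM. The 6 salivary glue genes summed to 4.93 to 17.3 CPM at day 5 and 103.6, 111.3 and 1225.1 CPM at day 11. The part of these tissues in the levels of the members was not tested. The fit with the fat body level, given with Lsp1alpha, is not such a test, as it was added after seeing the data. In bulk samples, fewer cells of a type and less RNA per cell cannot be told apart.

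CR43283 was the member with the widest range. It spans 11247631 to 11256123 of chromosome 3R, minus strand (dm6 coordinates, Ensembl annotation). It has 3 annotated transcripts of 3478 to 8311 nt with 2 different 3′ ends, and no annotated gene overlaps it. The day 5 libraries held 732, 441 and 95 counts, or 96.9, 53.1 and 12.0 CPM in replicates 1, 2 and 3. The day 11 libraries held 24, 36 and 20 counts, or 2.57, 5.53 and 2.91 CPM. Every day 5 library lay above every day 11 library, but the lowest at day 5 was closer to the day 11 libraries than to the highest at day 5. The means were 54.0 ± 42.4 CPM at day 5 and 3.67 ± 1.62 CPM at day 11 (SD, n = 3 per day). The fitted log2 ratio of day 11 over day 5 was -3.90 (SE 0.97, with -6.49 to -1.32 as its 95% interval). Leaving out day 5 replicate 1 gave -3.18, and leaving out day 5 replicate 3 gave -4.38.

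The spread of CR43283 within day 5 was far beyond counting error. Exact 95% Poisson intervals, which cover counting error only, were 90.0 to 104.1, 48.3 to 58.3 and 9.72 to 14.7 CPM in replicates 1, 2 and 3. The highest day 5 library was 8.06 times the lowest. Over the 5982 tested genes with a day 5 mean of 5 to 500 CPM, this ratio had a median of 1.25 and a 95th percentile of 1.98, and 25 genes exceeded CR43283. Among the 6174 genes with a day 5 mean of 5 CPM or more, 1008 (16.3%) ran from replicate 1 down to replicate 3, and 11 of these by more than 5-fold: Lsp2 (50.8), fon, Lsp1gamma (17.1), CG2233, Rfabg (12.1), CG6910, CR43283, Lsp1beta (7.62), CG34166, Lsp1alpha (6.68) and Obp99b (5.24). The reverse order was taken by 1181 genes (19.1%), 18 of them by more than 5-fold, among them the ring gland genes phm (22.5), sad (21.9), spok (17.6) and nvd (13.4). The 25 included 2 of the 5 fat body genes and all 4 ring gland genes in that range, and none of the eye-antennal disc genes. Across the day 11 libraries the ratio for CR43283 was 2.15, against a median of 1.35 over 6094 genes.

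The gene next to the 3′ end of CR43283 is CG5214, which lies 768 bases away on the opposite strand. It held 59.1, 71.7 and 70.3 CPM at day 5 and 73.9, 72.3 and 61.9 CPM at day 11. This neighbour thus showed neither the day 5 order nor the difference between days seen in CR43283.

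**Figure D1:**
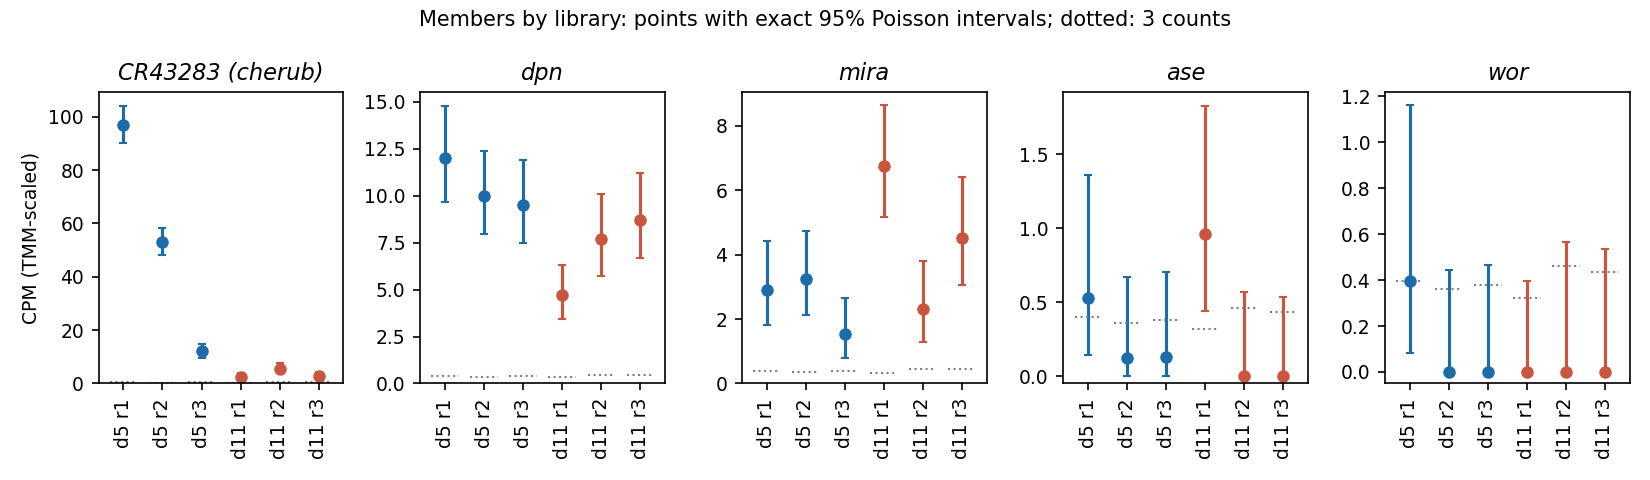
Level of each member in each library, in CPM after TMM scaling on linear axes that differ between panels; d is the day, r the replicate, bars are exact 95% Poisson intervals and dotted lines mark 3 counts. CR43283 runs from 96.9 to 12.0 CPM within day 5, dpn stays between 4.71 and 12.0 CPM in all libraries, and ase and wor lie at or near the level of 3 counts in most libraries.

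**Figure D2:**
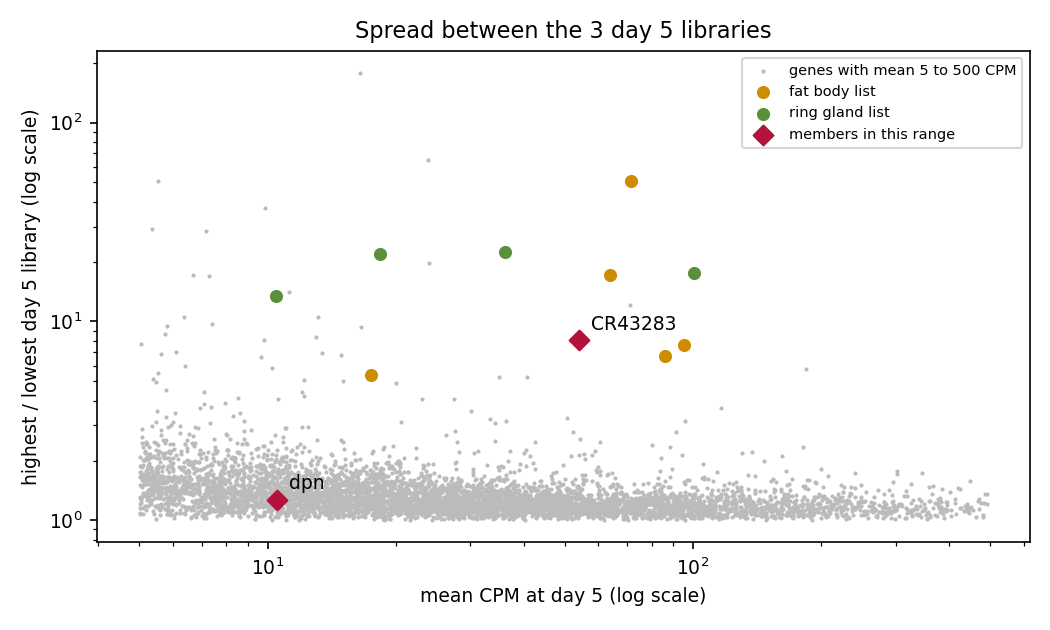
Ratio of the highest to the lowest day 5 library against mean day 5 level, both on log axes, for tested genes of 5 to 500 CPM. CR43283, at 8.06, lies among the fat body and ring gland genes, while dpn, at 1.27, lies within the mass of genes, whose median is 1.25.

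dpn encodes Deadpan, a bHLH-Orange repressor of the Hairy and Enhancer-of-split family that maintains neuroblast self-renewal. The gene lies on chromosome arm 2R and has 1 annotated transcript of 2036 nt, with an antisense RNA gene, CR44275, annotated across it; that antisense gene had no counts in any library. Stable intronic RNA genes are annotated within dpn as well. Day 5 libraries held 91, 83 and 75 counts of dpn, or 12.0, 10.0 and 9.49 CPM. Day 11 libraries held 44, 50 and 60 counts, or 4.71, 7.69 and 8.72 CPM. The groups did not overlap, but the gap between the lowest day 5 and the highest day 11 library was small, and their Poisson intervals overlapped (7.46 to 11.9 and 6.66 to 11.2 CPM). The log2 fold change was -0.59 (SE 0.28, 95% interval -1.19 to 0.02), and -0.89 with total-count scaling.

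mira encodes Miranda, the adaptor for the fate determinants. It lies on chromosome 3R from 19931799 to 19935120, minus strand, with 3 annotated transcripts of 2893 to 3232 nt. The whole gene sits in an intron of both annotated transcripts of Hs6st, a heparan sulfate sulfotransferase gene on the same strand. Day 5 libraries held 22, 27 and 12 counts of mira, or 2.91, 3.25 and 1.52 CPM, and day 11 libraries 63, 15 and 31 counts, or 6.74, 2.31 and 4.51 CPM. The groups overlapped, and the highest library was day 11 replicate 1. The log2 fold change was 0.83 (SE 0.46, 95% interval -0.18 to 1.84), and 0.41 without day 11 replicate 1. Hs6st held 10.6 to 18.5 CPM over the 6 libraries, was highest in day 5 replicate 1, and so did not share the order of mira.

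ase encodes Asense, a bHLH factor of the achaete-scute complex made in neuroblasts and in sensory organ precursors. Its locus is chromosome X from 460747 to 463176, plus strand, with 1 transcript of 2430 nt. It lies on the opposite strand within an intron of 1 of the 6 transcripts of CG32816. Day 5 libraries held 4, 1 and 1 counts of ase, and day 11 libraries 9, 0 and 0. In day 11 replicate 1 this was 0.963 CPM (exact 95% Poisson interval 0.440 to 1.83 CPM). The 2 day 11 libraries with no count allow up to 0.461 and 0.436 CPM at 3 counts. That same day 11 replicate 1 was also the highest library for mira and the lowest for dpn.

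wor encodes Worniu, a Snail-family zinc finger factor of neuroblasts. Its locus is chromosome 2L from 15423297 to 15425580, minus strand, with 1 transcript of 2222 nt and no overlapping gene. It had 3 counts in day 5 replicate 1, which is 0.397 CPM (exact 95% Poisson interval 0.0819 to 1.16 CPM), and 0 in the other 5 libraries. A count of 0 allows 0.321 to 0.461 CPM in those libraries at 3 counts. The library with the only counts of wor is the one with the most CR43283. No fold change is given for ase or wor, which did not pass the filter on low counts.

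Of the 3 members in the fit, CR43283 was past the threshold of an adjusted p of 0.05, being lower at day 11, while 17.9% of all tested genes were called lower and 37.0% called in either direction. CR43283 was not past it without a low-count filter, without day 5 replicate 2 or without any 1 of the day 11 replicates, and dpn was past it with total-count scaling. Since the members were chosen with this contrast in view, nothing is read from that count. The members did not share a pattern. The ratio of CR43283 to dpn was 8.04, 5.31 and 1.27 in day 5 replicates 1, 2 and 3, and 0.545, 0.720 and 0.333 at day 11, so that it spanned 24.1-fold over the 6 libraries. The ratio of CR43283 to mira spanned 87.3-fold, from 33.3 in day 5 replicate 1 to 0.381 in day 11 replicate 1. At day 5, dpn followed the order of CR43283 only within 1.27-fold, and mira was highest in replicate 2.

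The gene whose profile over the 6 libraries lay nearest to that of CR43283 was Lsp1alpha, which codes for a subunit of a larval serum storage protein made by the fat body. Likeness was the root mean squared difference of log2 CPM after centring each gene on its own mean, over 6303 genes averaging 5 CPM or more. It was 0.73 for Lsp1alpha, beside a spread of 1.95 for CR43283 about its own mean. Lsp1alpha held 147.0, 88.4 and 22.0 CPM in day 5 replicates 1, 2 and 3 and 10.5, 26.7 and 15.6 CPM at day 11. Both RNAs thus ran from replicate 1 down to replicate 3 at day 5, and both were highest in replicate 2 at day 11.

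Within a day, CR43283 and Lsp1alpha kept almost the same ratio. It was 0.659, 0.601 and 0.546 in the day 5 libraries, a 1.21-fold range, and 0.245, 0.207 and 0.187 in the day 11 libraries, a 1.31-fold range. All 3 day 5 ratios were above all 3 day 11 ratios. With Lsp1beta, coding for another subunit, the ratio ranged 1.39-fold at day 5 and 1.71-fold at day 11. With the storage protein gene Lsp2 it ranged 6.30-fold at day 5 and 12.1-fold at day 11. The fat body genes themselves thus did not keep 1 ratio to each other. Lsp1alpha was picked from many genes for its likeness, so these ratios are a description. When the summed fat body level was added to the fit, a fit added once the data had been seen, the log2 fold change of CR43283 was -3.55 in place of -3.90. As the genes in that sum did not keep 1 ratio to each other, this does not test the part of the fat body.

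The other genes nearest to CR43283 followed the difference between days more than the order within day 5. The RNA of the minor spliceosome snRNA:U12:73B (0.76) held 33.5, 39.9 and 18.2 CPM at day 5 and 1.71, 6.61 and 4.80 CPM at day 11. The sodium channel family gene ppk13 (0.86), CG4288 (0.87), Oscillin (0.89), CG14984 (0.91) and CG34038 (0.93) came next. They were followed by nab (0.94), the cuticle protein gene Lcp65Ag1 (0.96) and the augmin subunit gene msd1 (0.96). Of these 9 genes, Oscillin and nab ran from replicate 1 to replicate 3 at day 5 in the order of CR43283; the other 7 were highest in replicate 2. By the same measure dpn and wor lay at 1.65, ase at 2.02 and mira at 2.28 from CR43283. The mean profile of dpn, mira, ase and wor was nearly flat, with a spread of 0.35 about its mean. Averaging contributed to this, as dpn (-0.59) and mira (0.83) differed between the days in opposite directions. The prior count of 2 also flattens ase and wor, which had few counts. Its nearest genes were CG42321, CG17802, the dosage compensation RNA roX1, CG13344, Prestin, spn-F, mu2, CG2662, eIF4G2 and CG3631. All 10 lay within 0.17, and none was called between the days. Genes picked for nearness to a flat profile differ little between the days by that choice, so nothing is read from this.

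**Figure D3:**
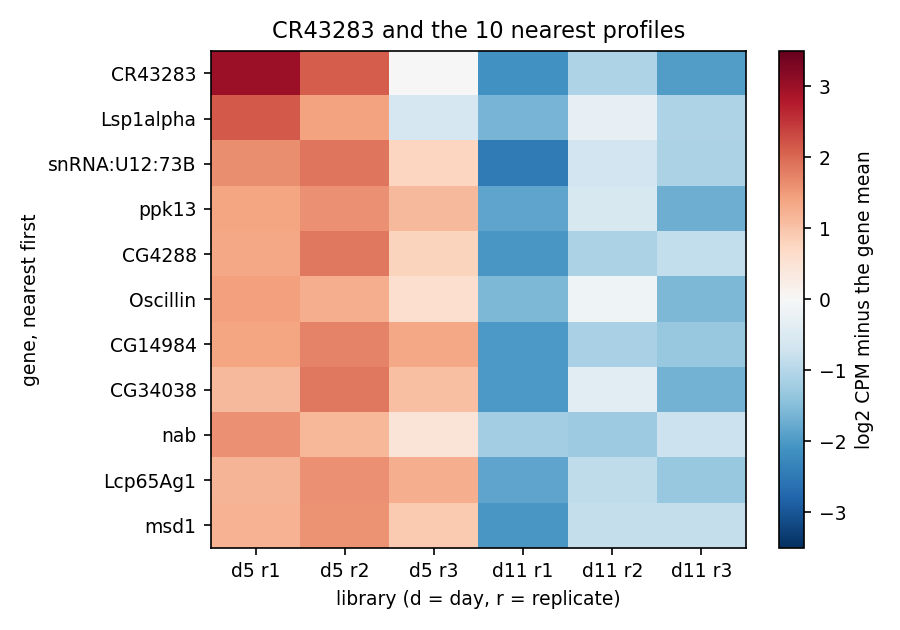
Log2 CPM of CR43283 and its 10 nearest genes in each library, with each gene centred on its own mean; red is above and blue below the mean. Lsp1alpha repeats the order of CR43283 within both days, while 7 of the others are highest in day 5 replicate 2.

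Genes known for central neurons were low in all libraries, with 14 to 19 of the 21 listed genes detected in each. The 21 transmitter and peptide genes summed to 13.4, 18.1 and 11.8 CPM in day 5 replicates 1, 2 and 3, and to 23.2, 34.3 and 20.5 CPM at day 11. Their sum was therefore not highest in the library with the most CR43283, though at day 11 both were highest in replicate 2. The neuropeptide cell factor dimm had no count in any library, and VGlut, the glutamate transporter gene of motor neurons, was at most 0.436 CPM. Cha, which makes acetylcholine, held 1.59, 1.33 and 0.632 CPM at day 5 and 0.856, 2.31 and 1.02 CPM at day 11. Of the 7 tested genes Cha and Vmat, the monoamine transporter gene, took the order of CR43283 at day 5, Vmat with 6.09, 2.41 and 0.253 CPM. Vmat was named after its values were seen. Of the same 7 genes, sNPF and amn were higher at day 11, both named after their values were seen because they lay under 5 CPM. sNPF held 0.584 ± 0.168 CPM at day 5 and 4.28 ± 1.51 CPM at day 11 (SD, n = 3 per day), a rise of 2.84 on the log2 scale (edgeR adjusted p = 0.00134). amn rose by 1.25 (edgeR adjusted p = 0.0426), and 9 of 15 other settings did not call it, including the omission of each day 5 replicate and of day 11 replicates 1 and 3.

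Most region genes of the brain were low as well, but Lim3 held 4.22 to 11.5 CPM, and ems and vvl reached 36.5 and 39.5 CPM. The summed level of the region genes was 63.2, 78.9 and 89.8 CPM in day 5 replicates 1, 2 and 3, the reverse of the order of CR43283. Unlike the central neuron sum, it was lower in every day 11 library than in any day 5 library. Most of this sum came from ems, vvl and Lim3, of which vvl alone took that reverse order (17.7, 36.5 and 39.5 CPM). The median of the 12 listed genes was 0.132, 0.12 and 0.0 CPM at day 5 and 0.321, 0.461 and 0.363 CPM at day 11. This median was thus higher in every day 11 library, though at or under the level of 3 counts throughout. Of 12 listed genes, hbn had no count, and Vsx1, bsh, Rx, hb and tj were at most 1.38 CPM in any library. The homeobox gene ems and the POU gene vvl, which discs also express, fell, with log2 fold changes of -0.45 (SE 0.15, edgeR adjusted p = 0.0317) and -1.75 (SE 0.30, adjusted p = 0.00139). For ems, 5 of 16 other settings gave no call, including the omission of each day 5 replicate and of day 11 replicate 3. The 4 trunk Hox genes, which mark the ventral nerve cord and other discs, summed to 1.19, 3.01 and 1.01 CPM at day 5 and 1.07, 3.23 and 0.436 CPM at day 11. The insulin genes of the brain's neurosecretory cells, Ilp2, Ilp3 and Ilp5, stood at 2.77, 3.84 and 3.07 CPM in day 11 replicate 2 and at no more than 0.506 CPM in any other library. That library held no ase or wor count and the lowest mira level of its day, while its CR43283 level was the highest of its day. Its sums of fat body, ring gland, muscle, haemocyte, central neuron, trunk Hox and glial genes were also the highest of its day. Of the glial genes, Gs2 was highest of its day there (105.8 CPM), while nrv2 was lowest (115.0 CPM). The sums of salivary glue and brain region genes were not highest in that library. The brain region sum came mostly from ems, vvl and Lim3, and the median of the region genes was highest of its day there, at 0.461 CPM.

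Glial genes, which mark glia of the brain as well as retinal glia on the disc, summed to 239.0 to 299.9 CPM at day 5 and 236.1 to 255.3 CPM at day 11. Most of each sum came from Gs2 and nrv2. The median of the 8 listed genes was 2.84, 1.81 and 1.33 CPM in day 5 replicates 1, 2 and 3. At day 11 this median was 3.48, 5.84 and 6.11 CPM. It thus took the order of CR43283 at day 5 and was higher in every day 11 library. The glial factor gene repo (2.78, 2.29 and 1.52 CPM) and the transporter gene Eaat1 (2.91, 1.33 and 0.126 CPM) took the order of CR43283 at day 5. Both were named after their values were seen, both rest on few counts, and neither was called. The other tested glial genes did not take that order: moody, Gs2 and nrv2 were highest in replicate 2, and wrapper was lowest there. The most abundant was nrv2, a sodium pump subunit gene, at 115.0 to 156.1 CPM. Of 6 tested genes, moody, a receptor gene of the blood-brain barrier, rose by 0.56 on the log2 scale (edgeR adjusted p = 0.0376), and wrapper, a glial surface protein gene under 5 CPM, by 2.04 (adjusted p = 0.00733). For moody, 7 of 16 other settings gave no call, including total-count scaling and the omission of any day 5 replicate or day 11 replicate 1. Over the 45 genes of the lists for central neurons, brain regions, trunk Hox and glia, 16 were tested, 4 rose and 2 fell, or 37.5% of those tested against 37.0% of all genes. The median log2 fold change of the 16 was 0.08, that of all tested genes -0.01. The number called was 3 without day 5 replicate 1, and also 3 without day 5 replicate 3. The part of brain tissue in the levels of CR43283 was not tested.

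**Figure D4:**
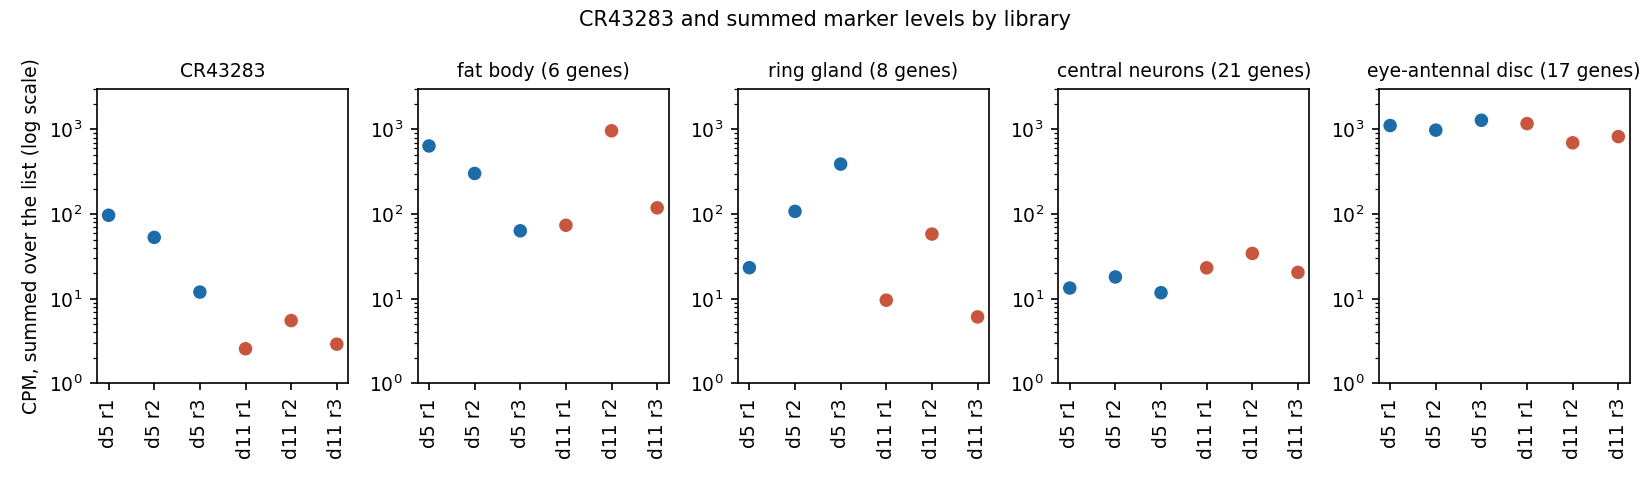
Level of CR43283 and summed levels of the genes marking fat body, ring gland, central neurons and the eye-antennal disc in each library, in CPM on a shared log axis. The fat body sum shares the order of CR43283 at day 5, the ring gland sum has the reverse order, and the central neuron sum stays between 11.8 and 34.3 CPM.

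Genes of neuroblast identity other than the members were partly absent and partly abundant. Of 13 listed genes l(1)sc had no count, and cas, sna and tll had too few to be tested. These are factors of early neuroblasts and of the optic lobe or brain. Of the 9 tested, 4 rose and 1 fell; background calls were 19.1% higher and 17.9% lower. SoxN, a SoxB factor, held 9.53, 5.06 and 12.3 CPM at day 5 and 61.2, 27.1 and 36.5 CPM at day 11 (log2 fold change 2.22, SE 0.41, edgeR adjusted p = 0.00529). klu, a zinc finger gene of neuroblasts also used in sensory bristle formation, rose by 0.60 (adjusted p = 0.00983). brat, whose protein represses translation in the smaller daughter, was the most abundant, at 410.0 to 493.0 CPM at day 5 and 554.5 to 782.0 CPM at day 11 (log2 fold change 0.57, adjusted p = 0.00896). The klu and brat calls were lost without day 5 replicate 2 and with total-count scaling. nab, a transcription cofactor gene, averaged 9.39 ± 3.64 CPM at day 5 and fell by 2.36 on the log2 scale to 1.82 ± 0.437 CPM at day 11 (SE 0.38, adjusted p = 0.00068). Its day 5 libraries held 13.0, 9.52 and 5.69 CPM, a milder form of the order seen for CR43283.

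The machinery of asymmetric division was expressed in every library, all 18 genes having counts in each. Of 18 tested, 4 rose, 1 fell and 13 were not called, beside 37.0% called among all genes. Many of these genes serve epithelial polarity in discs. insc, which links the polarity complex to the spindle and is known for neuroblasts and sensory precursors, held 2.91, 3.37 and 2.15 CPM at day 5 and 6.63, 7.07 and 8.43 CPM at day 11 (log2 fold change 1.38, SE 0.32, edgeR adjusted p = 0.00541). numb, whose protein restrains Notch in a daughter cell, fell by 0.47 on the log2 scale (adjusted p = 0.0198), a call lost without day 5 replicate 1 or 3 or day 11 replicate 3. pon, the gene for the Partner of Numb, was not called, at 0.17 on the log2 scale (95% interval -0.42 to 0.76).

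Of the RNAs for proteins that Miranda carries, stau, pros and brat were in the lists above, and each was called higher at day 11, pros and brat not with total-count scaling. stau, for the double-stranded RNA-binding protein that also holds cherub at the cortex, held 93.9, 78.9 and 103.5 CPM at day 5 and 271.2, 157.1 and 173.9 CPM at day 11. Its log2 fold change was 1.13 (SE 0.20, edgeR adjusted p = 0.00188). pros, for the homeodomain factor that ends self-renewal and also acts in photoreceptor R7 and cone cells, held 16.9, 21.3 and 9.74 CPM at day 5 and 43.7, 29.1 and 24.0 CPM at day 11 (log2 fold change 1.01, adjusted p = 0.0303). With total-count scaling stau was still called (adjusted p = 0.0219), while pros (adjusted p = 0.0884) and brat (adjusted p = 0.284) were not. The call of pros was also lost without day 5 replicate 1 or 3 and without day 11 replicate 1 or 2.

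Of 5 tested temporal and RNA-binding regulators, Syp and stau rose and chinmo fell. In brain neuroblasts Imp is high early and Syncrip late, and both bind cherub. Syp held 1976.4, 1627.8 and 1797.1 CPM at day 5 and 4045.9, 2784.0 and 2883.3 CPM at day 11, a rise of 0.85 on the log2 scale (SE 0.15, edgeR adjusted p = 0.00126). With total-count scaling its adjusted p was 0.0536. Imp held 630.1, 618.2 and 473.6 CPM at day 5 and 470.3, 507.5 and 520.4 CPM at day 11 and was not called (log2 fold change -0.20, 95% interval -0.49 to 0.09). With total-count scaling Imp was called lower at day 11 (log2 fold change -0.48, edgeR adjusted p = 0.0436). chinmo, a factor of early-born fates, fell by 0.49 on the log2 scale (SE 0.12, adjusted p = 0.00667). lin-28 had no count. Of these partners of cherub, Imp alone ran down from replicate 1 to replicate 3 at day 5, over a far narrower range than CR43283.

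Of the genes for type II neuroblasts and intermediate progenitors, a lineage type in which cherub is known to be strong, erm and tll were too low to be tested. erm held at most 0.361 CPM and tll at most 1.31 CPM. Of 6 tested genes, opa rose by 0.85 on the log2 scale (SE 0.27, edgeR adjusted p = 0.0298), with no call in 5 of 16 other settings, including total-count scaling and omission of day 5 replicate 1 or 3 or day 11 replicate 1 or 3. The most abundant, fru, stood at 0.04 on the log2 scale (95% interval -0.20 to 0.28). Over the 41 genes of the lists for identity, asymmetric division, type II lineages and temporal regulators, 35 were tested, of which 8 rose and 3 fell; with total-count scaling 3 rose and 8 fell. That is 31.4% called, against 37.0% of all tested genes, with a median log2 fold change of 0.07 against -0.01. These lists share members with each other and were drawn up with earlier results known.

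**Figure D5:**
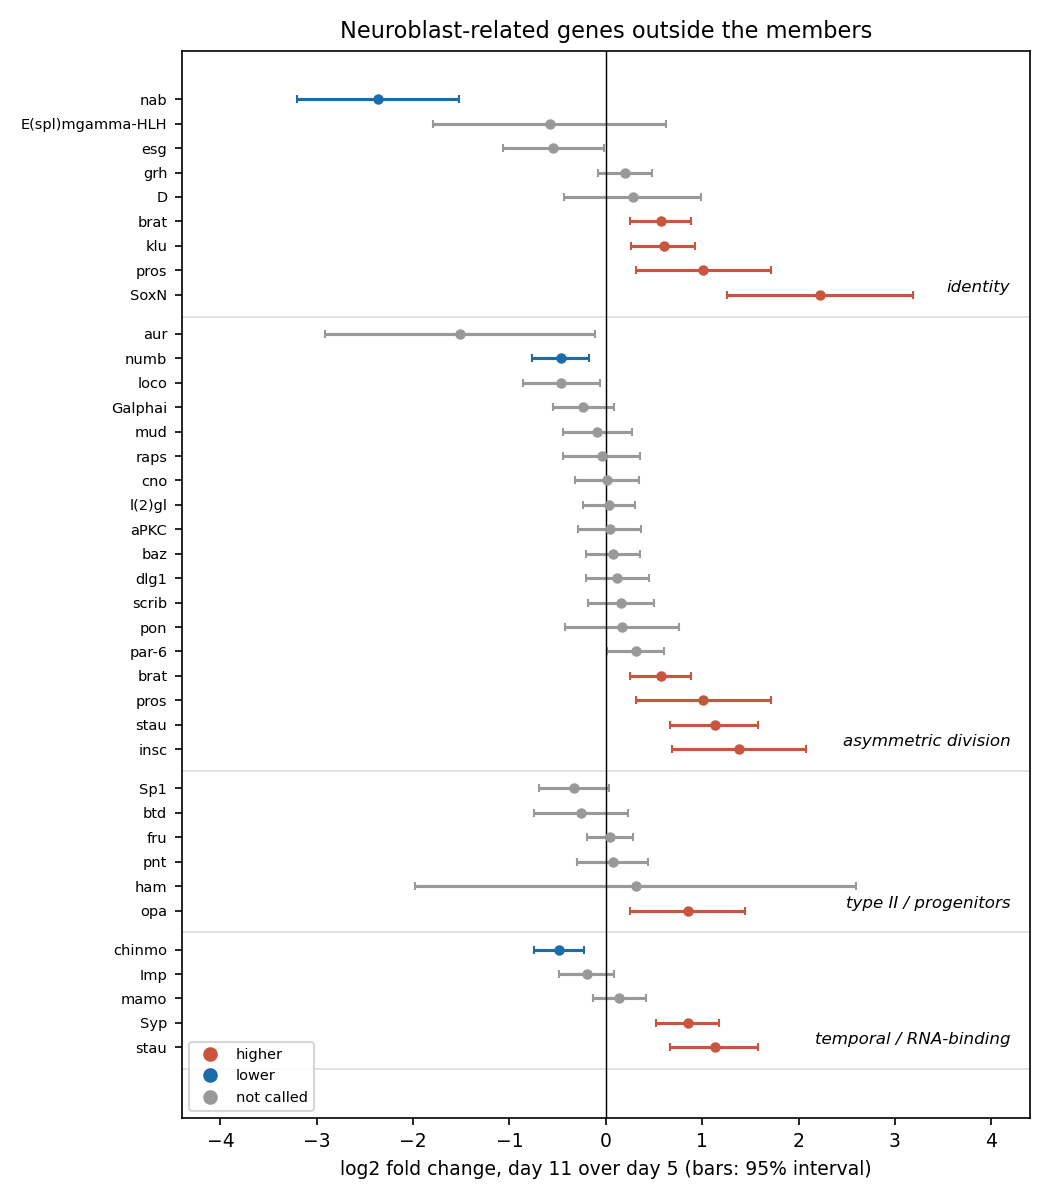
Log2 fold change of day 11 over day 5 for each tested gene of the neuroblast-related lists, with 95% intervals from the edgeR fit; red genes were called higher, blue lower and grey not called. Genes in more than 1 list appear once in each. SoxN (2.22) and nab (-2.36) lie farthest from 0 in their list, and 13 of 18 genes of asymmetric division are grey.

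Sensory organ precursors are the disc cells known to share ase with neuroblasts. Of 9 listed genes 7 were tested, 1 rose and 1 fell, beside 19.1% and 17.9% of all genes. The proneural gene sc, of the same complex as ase, held 5.16, 4.70 and 7.34 CPM at day 5 and 11.3, 12.6 and 12.1 CPM at day 11 (log2 fold change 1.06, SE 0.25, edgeR adjusted p = 0.00638). ato, the proneural gene of the furrow, fell by 2.99 on the log2 scale (adjusted p = 5.08e-05). The precursor factor sens held 5.42, 5.06 and 7.97 CPM at day 5 and 4.49, 2.31 and 2.33 CPM at day 11 and was not called (adjusted p = 0.0582). In 4 of 16 other settings sens was called lower, including total-count scaling (log2 fold change -1.23, edgeR adjusted p = 0.032). cpo was the most abundant, at 101.2 to 263.7 CPM over all libraries, and was not called. Of the other genes of the achaete-scute complex, ac held 2.25 to 7.53 CPM and was not called.

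The families of wor and dpn differed in how much of them the disc expressed. Of 5 Snail-family genes, sna and Kah were at or near 0, like wor. scrt held 98.2 to 336.7 CPM without a call, esg held 9.10 to 17.6 CPM without a call, and CG12605 rose from 4.04 ± 2.73 to 22.5 ± 9.85 CPM (2.49 on the log2 scale, edgeR adjusted p = 0.0112; not called without a low-count filter). Of the 11 Hairy and Enhancer-of-split genes listed beside dpn, 9 were found by symbol and 8 tested, and 3 rose and 1 fell, beside 19.1% and 17.9% of all genes. E(spl)m7-HLH (log2 fold change 1.30, adjusted p = 0.00263) and E(spl)mbeta-HLH (1.06, adjusted p = 0.000645), both Notch targets, rose, as did the clock repressor gene cwo (0.66, adjusted p = 0.00137), whose call was lost with total-count scaling. h, an early repressor ahead of the furrow, fell by 0.75 on the log2 scale (adjusted p = 0.0069).

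Genes of newborn neurons, which photoreceptors also use, rose in 4 and fell in none of 10 tested, beside 19.1% higher and 17.9% lower among all genes. The 4 were brp, onecut, jim and pros, whose call was lost in 5 of 16 other settings as given above. brp, an active zone gene, held 14.0 ± 4.66 CPM at day 5 and 73.5 ± 14.7 CPM at day 11 (SD, n = 3 per day), a rise of 2.40 on the log2 scale (SE 0.24, edgeR adjusted p = 4.94e-05). onecut and jim, both transcription factor genes, rose by 1.74 (adjusted p = 0.00061) and 0.97 (adjusted p = 9.15e-05). elav, the general neuronal marker, held 133.4 to 241.1 CPM over all libraries and was not called (log2 fold change -0.01, 95% interval -0.45 to 0.43). The day 5 levels of elav, 181.3, 168.4 and 179.9 CPM, lay close together in the same libraries in which CR43283 ran from 96.9 to 12.0 CPM.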

How the data were processed

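Polyadenylated RNA was made into QuantSeq forward 3′ libraries, per the labels' protocols. The authors deposited raw counts, 1 whole number per gene and library, without normalization. Reads went through FastQC, cutadapt and STAR 2.6.1d with build dm6, per the submitters' processing notes. The counting program, its annotation, its strand setting and its handling of multiply matched reads: not given in the sources used here. Counts of overlapping genes are uncertain for that reason. Of 16727 symbols, 12512 were current and 3996 a synonym of 1 RefSeq gene; loci come from Ensembl's annotation of the same assembly. Sequences were not used here.

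After the filterByExpr filter and TMM scaling, genes were tested by the quasi-likelihood test of edgeR 4.0.16 (R 4.3.3) with robust shrinkage, day 11 over day 5, two-sided, Benjamini-Hochberg adjusted over 8010 genes (threshold 0.05). SE and intervals come from that fit, whose calls were checked on simulated data; the intervals were not. Log2 CPM for profiles used a prior count of 2. A library's floor is 3 counts, 0.321 to 0.461 CPM. The labels do not say whether the libraries of a day are independent cultures; the p-values reflect only how far these samples vary, part of which may be technical. The members and lists were chosen with earlier results of these data known. Named were the members, up to 4 called genes of at least 5 CPM per list by smallest p, each list's most abundant gene, markers at 0, and the 10 nearest profiles. Alternatives were other scalings, filters and tools (DESeq2 1.42.0, voom of limma 3.58.1), no robust shrinkage, a replicate block, each library left out and, added after seeing the data, the summed fat body or central neuron level as a covariate.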

Additional observations from a re-analysis of the deposited data

How the results depend on the processing

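The log2 fold change of CR43283 ran from -3.18 to -4.38 with a library left out and from -3.54 to -4.20 under the other scalings, filters, tools and the replicate block. It was past the threshold in 11 of those 16 settings. The exceptions were no low-count filter and the omission of day 5 replicate 2 or of day 11 replicate 1, 2 or 3. With the central neuron level as a covariate, added after seeing the data, it was -5.13 and not past the threshold; that level differed between the days without overlap, so that the 2 terms share information. Under that covariate 1361 genes were called, 5 of the neuroblast lists and 1 of the brain lists. With the fat body level as covariate the counts were 3163, 11 and 6, and CR43283 was past the threshold, at -3.55.

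mira ran from 0.41 to 1.14 and dpn from -0.77 to -0.35 with a library left out, and neither changed sign in any setting run. Of these settings, only total-count scaling (-0.89) put dpn past the threshold. The ratio of the highest to the lowest day 5 library of CR43283 was 7.94 to 8.44 under the other scalings.

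Called genes numbered 2202 to 3008 with a library left out. Those of the neuroblast lists numbered 8 to 11, those of the brain lists 3 to 7. The brain lists had 3 called genes with the filter of 5 CPM, where 6 were tested, and 3 with the DESeq2 Wald test; the cause of the latter was not tested.

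The labels do not say whether the replicate numbers pair the libraries. The deviations of same-numbered libraries from their day means correlated at 0.05, 0.194 and -0.086 across genes. For differently numbered libraries the values ran from -0.23 to 0.166. These few correlations cannot decide whether a pairing exists. With the number as a replicate block, 2940 genes were called, 11 of the neuroblast lists and 4 of the brain lists, and the values were -3.67 for CR43283, 0.78 for mira and -0.61 for dpn.

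Depth limits ase and wor, for which no difference was detectable at these counts.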
